A study of Mus musculus with 6 samples.

Results

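Ccl5-expressing T cells of the draining lymph node were examined by single-cell RNA sequencing in 3 Pik3cg knockout (KO) mice and 3 wild-type (WT) mice. A cell entered the class when it carried 1 hashtag, at least 500 unique molecular identifiers (UMIs, each standing for 1 captured transcript), at most 10% mitochondrial UMIs, at least 1 UMI of Cd3d, Cd3e or Cd3g, no Cd79a or Foxp3 UMI, and at least 2 UMIs of Ccl5. The rule found 383 cells among 19230 cells that passed the hashtag, UMI and mitochondrial limits, with 174 cells from lane 1 and 209 from lane 2. They were set against 3275 T cells of the same gate with 0 Ccl5 UMIs, called Ccl5-zero T cells here, and were divided into 132 CD8 cells with at least 1 UMI of Cd8a or Cd8b1 and 251 non-CD8 cells without one. Both genotypes had been immunized 3 times with NP-Ova, a hapten coupled to ovalbumin, in the adjuvant alum, and nodes were taken at day 34. Before capture, 70% of each mixture had passed a negative selection for B cells with an added antibody to IgD and 30% was untouched, so the T cell yield reflects that selection. The 6 mice, numbered 1 to 3 within a genotype by hashtag order as a name only, carried their own antibody hashtags and were run as 1 pool on 2 droplet lanes. The age and sex of the mice, the deleted stretch of Pik3cg and the cell types that lack the gene are not given in the sources used here.

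CCL5 is a chemokine that recruits leukocytes and is stored or rapidly made by T cells with past activation and by natural killer (NK) cells. In mouse T cells it is commonly read together with Nkg7, a cytotoxic granule membrane protein, Il2rb, the beta chain of the receptors for interleukins 2 and 15, Ly6c2, a surface protein of memory CD8 T cells, and Xcl1, a chemokine that attracts cross-presenting dendritic cells. Pik3cg encodes the catalytic subunit of PI3K gamma, a lipid kinase that acts downstream of G protein-coupled receptors such as chemokine receptors.

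The stretches around the start sites of the marker genes are shown for Nkg7 and Xcl1. Windows were at hand for Nkg7, Xcl1 and Ly6c2, those of Ccl5 and Il2rb were not searched, and the windows of Nkg7 and Xcl1 hold the core sequence bound by T-box factors, the family of Tbx21 and Eomes, both of which appear in the results. Sequences are RefSeq windows of assembly GRCm38.p6, from 250 bases before to 50 bases after the start, written 5′ to 3′ on the gene's strand. The motif TCACACC was searched on both strands, and capitals mark GGTGTGA, its form on the opposite strand. Nkg7 lies on the plus strand with its window at chr7:43436888-43437187, and Xcl1 on the minus strand with its window at chr1:164935473-164935772.
Nkg7: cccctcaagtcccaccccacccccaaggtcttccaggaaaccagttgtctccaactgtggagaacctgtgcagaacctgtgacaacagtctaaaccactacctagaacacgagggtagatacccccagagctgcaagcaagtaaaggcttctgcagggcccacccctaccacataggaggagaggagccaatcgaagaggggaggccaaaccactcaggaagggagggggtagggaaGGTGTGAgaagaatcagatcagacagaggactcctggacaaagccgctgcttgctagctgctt
Xcl1: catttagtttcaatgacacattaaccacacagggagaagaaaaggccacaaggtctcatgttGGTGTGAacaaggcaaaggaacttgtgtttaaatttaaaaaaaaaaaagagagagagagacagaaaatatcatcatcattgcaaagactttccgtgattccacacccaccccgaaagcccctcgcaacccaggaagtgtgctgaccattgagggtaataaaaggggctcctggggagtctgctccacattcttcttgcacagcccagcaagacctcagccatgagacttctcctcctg
The match started at base 238 of the Nkg7 window and at base 63 of the Xcl1 window. The motif was present in 1307 of 32851 windows, or 3.98%. The next shares count genes with a window, where a gene was scored when any of its windows held the motif. The motif was present in 12 of 244 genes higher in Ccl5-expressing than in Ccl5-zero T cells (4.92%). It was present in 7 of 173 lower genes (4.05%) and in 4.1% of all tested genes with a window, so these shares lay close together. A match describes these letters and is not a measured binding site. The Ly6c2 window held no match.

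Ccl5 itself, on chromosome 11 of mm10 at 83525778 to 83530518 on the minus strand, had a median of 14 UMIs and a maximum of 88 UMIs per cell in the class. Exactly 2 UMIs were counted in 41 cells and at least 3 in 342 cells. Cells at the edge of the rule were intermediate in the other markers. Nkg7 was at 1010 CPM (counts of a gene scaled to a common total of UMIs, with no further factor here) in cells with at least 3 Ccl5 UMIs, 473 CPM in cells with 2, 442 CPM in the 101 cells with 1 and 267 CPM in cells with 0. Il2rb was at 361 CPM with at least 3 Ccl5 UMIs, 120 CPM with 2, 59.0 CPM with 1 and 43.3 CPM with 0. Because Ccl5 counts chose the cells, these levels describe the class and were not tested.

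The 4 other markers were all detected more often in Ccl5-expressing than in Ccl5-zero T cells. Nkg7 was detected in 84.6% of Ccl5-expressing and 31.0% of Ccl5-zero T cells, Ly6c2 in 75.2% and 12.3%, Il2rb in 55.1% and 8.67%, and Xcl1 in 24.0% and 0.58%. Median UMIs per cell were 2761 in Ccl5-expressing and 2465 in Ccl5-zero T cells. After each cell was thinned to 1000 UMIs, leaving out 6 Ccl5-expressing and 64 Ccl5-zero cells, the shares were 54.4% and 17.0% for Nkg7, 62.1% and 7.35% for Ly6c2, 28.6% and 3.58% for Il2rb, and 12.5% and 0.249% for Xcl1. In B cells, whose median was 2056.5 UMIs, Nkg7 was detected in 0.315% and Ly6c2 in 1.57%. By mouse, Nkg7 stood at 1038, 907.1 and 914.9 CPM in KO Ccl5-expressing cells and at 923.9, 832.2 and 1076 CPM in WT Ccl5-expressing cells, against 243.8 to 295.3 CPM in Ccl5-zero cells. Xcl1 stood at 106.2 to 198.6 CPM in Ccl5-expressing cells of the 6 mice and at 1.18 to 62.63 CPM in Ccl5-zero cells, where the highest value was that of KO mouse 1. Ly6c2 shares most of its sequence with Ly6c1, so the split of reads between them is uncertain.

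**Figure D1:**
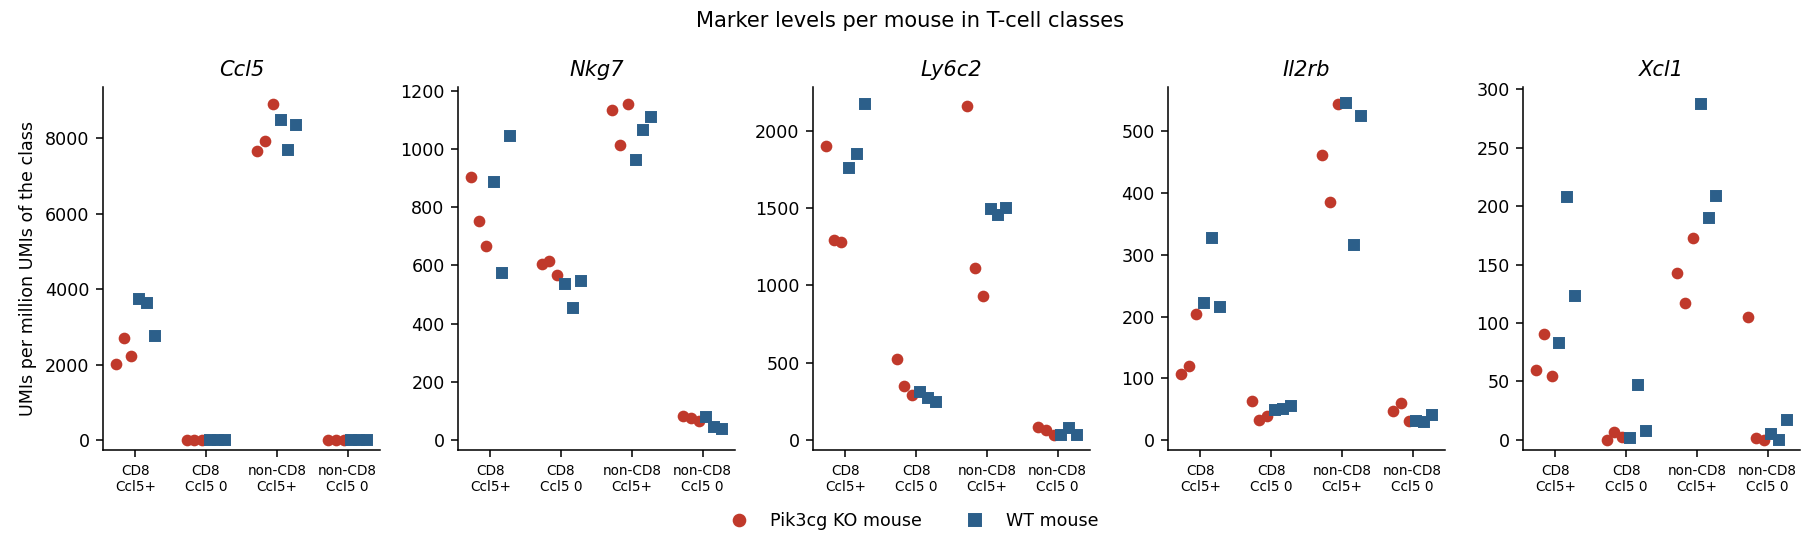
Levels of Ccl5, Nkg7, Ly6c2, Il2rb and Xcl1 in CPM per mouse for CD8 and non-CD8 T cells, Ccl5-expressing and Ccl5-zero, with KO and WT mice marked. Nkg7 of Ccl5-zero cells is mostly in the CD8 class, and Ccl5 is higher in non-CD8 than in CD8 Ccl5-expressing cells of every mouse.

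The label of effector and memory T cells fits these cells in part. Several genes of terminal effector cells were detected in few cells at this depth, and were picked for description with no test. Klrg1, an inhibitory receptor of short-lived effector cells, and S1pr5, an exit receptor of effector cells, were detected in 0 of 383 Ccl5-expressing cells, and in 5.26% and 16.8% of 95 NK-marked cells, whose median was 2451 UMIs. A count of 0 cells limits the share with a captured UMI and not the share that expresses the gene. Gzmb, a granzyme, was detected in 2.09% of Ccl5-expressing T cells and 34.7% of NK-marked cells. Gzma was detected in 4.7% of Ccl5-expressing T cells and 71.6% of NK-marked cells. Ifng was detected in 6.01% of Ccl5-expressing and 0.214% of Ccl5-zero T cells. Lef1, a transcription factor of naive T cells, was detected in 56.1% of Ccl5-expressing and 73.0% of Ccl5-zero T cells. Cd44, a marker of antigen experience, was detected in 28.7% of Ccl5-expressing and 16.0% of Ccl5-zero T cells. Cd4 was detected in 1.04% of Ccl5-expressing and 18.8% of Ccl5-zero T cells. The cells are therefore named by the rule, as Ccl5-expressing T cells.

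Quality measures of the whole set were as follows. Summed UMIs per mouse were 141796 to 249971 in Ccl5-expressing and 782351 to 2296707 in Ccl5-zero T cells. Scrublet marked 139 of the kept cells (0.723%) as doublets, none of them a T cell, and none was removed. A B cell receptor contig was found in 0.522% of Ccl5-expressing T cells, 0.244% of Ccl5-zero T cells and 75.4% of B cells. A single CD3 UMI carried the gate in 4.96% of Ccl5-expressing and 5.62% of Ccl5-zero T cells. The lanes shared 241 barcodes, and 5 Ccl5-expressing cells had such a barcode. Pik3cg was counted in Ccl5-expressing cells of both genotypes, with 6, 10 and 3 UMIs in KO mice and 4, 7 and 9 UMIs in WT mice, and since the deleted stretch is not given these counts check no label.

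The split by Ccl5 was also tested across genes, with the mouse as the unit and as a block (edgeR quasi-likelihood test on UMI sums, n = 6 mice). Of 5481 genes, 549 passed an adjusted p of 0.05, or 10.0%, with 311 higher and 238 lower in Ccl5-expressing T cells. The rule reads Ccl5 in the same cells, so these genes are those found together with Ccl5 transcripts and are not an independent test of the class. CPM of this and later tests are also scaled by TMM factors, log2 values are fold changes of Ccl5-expressing over Ccl5-zero cells, and SE is the standard error of the log2 value.

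Receptors of the killer lectin-like family and related NK receptors were mostly higher over all T cells. Of 9 tested members of the list, 8 were higher, 0 were lower, and their median log2 difference was 3.08, against 0.00401 over all tested genes. Klrd1, which encodes CD94, had 274, 356 and 537 CPM as the lowest, median and highest of the 6 mice in Ccl5-expressing cells, against 97.9, 118 and 149 CPM in Ccl5-zero cells (log2 1.71, SE 0.12, adjusted p = 6.4e-16). The activating receptor Klrk1, or NKG2D, had 39.3, 73.5 and 112 CPM in Ccl5-expressing cells, against 1.84, 2.62 and 6.7 CPM in Ccl5-zero cells (log2 4.48, SE 0.33). Cd160, a receptor of the immunoglobulin family, had 43.6, 54 and 91.6 CPM in Ccl5-expressing cells, against 4.02, 7.52 and 9.74 CPM in Ccl5-zero cells. For these 3 genes the lowest Ccl5-expressing value lay above the highest Ccl5-zero value. Klra7, a Ly49 receptor of a family of near-identical genes whose reads are uncertain in their split, had 94.4, 174 and 271 CPM in Ccl5-expressing cells, against 0, 0 and 4.49 CPM in Ccl5-zero cells. Klre1 had 54.1, 61.8 and 87.2 CPM in Ccl5-expressing cells, against 0, 0 and 0.461 CPM in Ccl5-zero cells, and Ccl5-zero counts of both genes were too few for a fold. Slamf7 and Crtam were also higher. Within non-CD8 cells 7 of 8 tested members of this list were higher and 0 were lower, with a median log2 difference of 4.38. Within CD8 cells 0 of 2 tested members, Klrd1 and Cd226, were higher and 1 was lower, with a median of −0.451. The other listed receptors did not pass the filter on low counts there, so this count does not cover them. Klra7 was detected in 18.9% and Klre1 in 7.58% of CD8 Ccl5-expressing cells, and Klre1 had no UMI in CD8 Ccl5-zero cells.

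Genes of the cytotoxic granule were higher in part. Of 8 tested members 4 were higher and 0 were lower, with a median log2 difference of 0.612. Ctsw, a cathepsin of cytotoxic lymphocytes, had 364, 420 and 473 CPM in Ccl5-expressing cells, against 111, 116 and 132 CPM in Ccl5-zero cells (log2 1.81, SE 0.10, adjusted p = 1.4e-18). Cst7, which encodes cystatin F, an inhibitor of granule proteases, had 91.7, 117 and 145 CPM in Ccl5-expressing cells, against 36.1, 46.2 and 56.3 CPM in Ccl5-zero cells (log2 1.34, SE 0.16). Groups of mice did not overlap for either gene. Prf1, the pore-forming perforin, did not pass (log2 0.72, adjusted p = 0.128). Of the 16 listed chemokines and cytokines, only 2 passed the filter on low counts apart from the rule's own genes, and Cd40lg, the helper T cell ligand of CD40, was lower (0, 7.27 and 29.2 CPM in Ccl5-expressing cells, against 69.6, 87.6 and 96.2 CPM in Ccl5-zero cells).

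Cytokine receptors moved in both directions, with 3 of 9 tested members higher and 2 lower. Both chains of the interleukin 18 receptor were higher. Il18r1 had 133, 189 and 203 CPM in Ccl5-expressing cells, against 45.2, 66.9 and 70.1 CPM in Ccl5-zero cells (log2 1.58, SE 0.14). Il18rap had 72.7, 81.4 and 128 CPM in Ccl5-expressing cells, against 1.4, 4.77 and 10.7 CPM in Ccl5-zero cells (log2 4.02, SE 0.28). The interferon gamma receptor chain Ifngr1 had 218, 256 and 324 CPM in Ccl5-expressing cells, against 59, 84.2 and 89 CPM in Ccl5-zero cells (log2 1.73, SE 0.12). All 3 separated the groups in every mouse. Il6ra (log2 −1.67) and Tgfbr2 (log2 −0.61) were lower, and Il7r, the interleukin 7 receptor of naive and memory cells, did not pass (log2 0.19, adjusted p = 0.149).

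Transcription factors of effector and memory cells were higher in 6 of 11 tested members and lower in 1, with a median log2 difference of 0.797. Tbx21, or T-bet, had 31.9, 60.5 and 75 CPM in Ccl5-expressing cells, against 0, 2.12 and 2.8 CPM in Ccl5-zero cells. Eomes, its T-box relative, had 72.7, 88.3 and 106 CPM in Ccl5-expressing cells, against 9.74, 11 and 21.4 CPM in Ccl5-zero cells (log2 2.71, SE 0.23, adjusted p = 2.9e-13). Ikzf2, which encodes Helios, had 218, 331 and 582 CPM in Ccl5-expressing cells, against 46.5, 74 and 101 CPM in Ccl5-zero cells (log2 2.34, SE 0.13). No mouse's Ccl5-zero value reached the lowest Ccl5-expressing value in any of these genes. Hopx (log2 2.26) and Runx3 (log2 0.92) were higher, and Maf was lower (log2 −1.44). Factors of naive and stem-like cells split, with 4 of 11 tested members higher and 6 lower. Lef1, a partner of Wnt signals in naive T cells, had 204, 335 and 436 CPM in Ccl5-expressing cells, against 664, 725 and 759 CPM in Ccl5-zero cells (log2 −1.13, SE 0.09, adjusted p = 3.1e-14). Bach2, a repressor of effector genes, had 145, 204 and 254 CPM in Ccl5-expressing cells, against 398, 462 and 505 CPM in Ccl5-zero cells (log2 −1.15, SE 0.10). Tcf7, which encodes TCF1, had 294, 372 and 472 CPM in Ccl5-expressing cells, against 413, 458 and 476 CPM in Ccl5-zero cells, and these overlapped (log2 −0.25, adjusted p = 0.0486). Myb (log2 1.46) and Klf2 (log2 0.40) were among the higher factors.

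Homing and adhesion genes were higher in 7 of 14 tested members and lower in 4. Cxcr3, a chemokine receptor of type 1 effector and memory cells, had 48, 60.5 and 94.5 CPM in Ccl5-expressing cells, against 2.68, 4.02 and 10.8 CPM in Ccl5-zero cells (log2 3.67, SE 0.31). Itgb1, the integrin beta 1 chain, had 153, 219 and 304 CPM in Ccl5-expressing cells, against 52.6, 67.1 and 74.3 CPM in Ccl5-zero cells (log2 1.80, SE 0.14). Ccr7, which guides cells into the T cell zone, had 50.9, 80.8 and 110 CPM in Ccl5-expressing cells, against 180, 196 and 216 CPM in Ccl5-zero cells (log2 −1.29, SE 0.15, adjusted p = 2.3e-09). These 3 separated the groups without overlap. Cd44 was higher (log2 0.63) and Itgae, the CD103 chain of tissue-resident cells, was lower, with 0, 0 and 14.5 CPM in Ccl5-expressing cells, against 22.5, 37.7 and 46.3 CPM in Ccl5-zero cells.

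Among the remaining lists, S100, annexin and galectin genes were higher in 7 of 13 tested members and lower in 1. Anxa2 had 79.7, 131 and 208 CPM in Ccl5-expressing cells, against 9.89, 14.7 and 21.4 CPM in Ccl5-zero cells (log2 3.14, SE 0.22). Survival genes were higher in 4 of 7, with Bcl2 at log2 0.80, and interferon-stimulated genes were lower in 4 of 16 and higher in 0. Of T cell receptor signalling genes, 2 of 17 were higher and 4 were lower. Among 9 class I PI3K genes, Pik3r5, a regulatory subunit that pairs with PI3K gamma, was higher (90.3, 136 and 145 CPM in Ccl5-expressing cells, against 53.6, 67.8 and 79.3 CPM in Ccl5-zero cells). Pik3r5 also passed within non-CD8 cells, but not within CD8 cells or without cells holding markers of other cell types. Inpp4b, a phosphoinositide phosphatase, was lower (124, 170 and 276 CPM in Ccl5-expressing cells, against 534, 613 and 658 CPM in Ccl5-zero cells; log2 −1.82, SE 0.10). Pik3cg did not pass (log2 0.53, SE 0.27, adjusted p = 0.252). Ctla2a, an inhibitor of cathepsins, had 207, 300 and 370 CPM in Ccl5-expressing cells, against 9.85, 16.6 and 42.6 CPM in Ccl5-zero cells. Fcer1g, an adaptor of NK and innate-like T cells, had 250, 323 and 429 CPM in Ccl5-expressing cells, against 1.22, 12.5 and 23.5 CPM in Ccl5-zero cells (log2 4.51, SE 0.18).

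Within each compartment the Ccl5 split was tested again. In CD8 cells 122 of 2580 genes passed, or 4.73%, with 77 higher and 45 lower in Ccl5-expressing cells. In non-CD8 cells 495 of 3892 genes passed, or 12.7%, with 259 higher and 236 lower. Median UMIs per cell were 4039 in CD8 Ccl5-expressing, 2806 in CD8 Ccl5-zero, 2412 in non-CD8 Ccl5-expressing and 2280 in non-CD8 Ccl5-zero cells. The difference between the compartments in the Ccl5 split was not tested.

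In CD8 cells Ctla2a had 142, 234 and 421 CPM in Ccl5-expressing cells, against 7.22, 16.4 and 49.1 CPM in Ccl5-zero cells (log2 3.77, SE 0.27, adjusted p = 1.5e-15). Hopx, a cofactor of effector and memory lymphocytes, had 158, 289 and 408 CPM in Ccl5-expressing cells, against 52.9, 61.1 and 76.1 CPM in Ccl5-zero cells (log2 2.19, SE 0.20). Itgb1 had 78.9, 197 and 272 CPM in Ccl5-expressing cells, against 36.8, 43 and 58 CPM in Ccl5-zero cells (log2 2.22, SE 0.22). None of the 3 overlapped between the groups. Rgcc, a cell cycle regulator, had 14.8, 25.6 and 63.1 CPM in Ccl5-expressing cells, against 130, 237 and 365 CPM in Ccl5-zero cells (log2 −3.07, SE 0.28, adjusted p = 6.3e-12). Bach2 had 94.3, 154 and 281 CPM in Ccl5-expressing cells, against 382, 412 and 455 CPM in Ccl5-zero cells (log2 −1.18, SE 0.16). Lef1 (log2 −0.86) and Ccr7 (log2 −1.01) were also lower, while Tcf7 (log2 −0.14, adjusted p = 0.679) did not pass. Klrd1 had 189, 256 and 368 CPM in CD8 Ccl5-expressing cells, against 210, 242 and 300 CPM in CD8 Ccl5-zero cells, and did not pass (log2 0.17, SE 0.15, adjusted p = 0.686). Cd226, an activating receptor of T and NK cells, had 47.4, 63.1 and 126 CPM in CD8 Ccl5-expressing cells, against 117, 150 and 202 CPM in CD8 Ccl5-zero cells, which overlapped, and was lower (log2 −1.07, SE 0.23, adjusted p = 0.00188). Of the naive and stem-like factors 0 of 10 were higher and 5 were lower.

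In non-CD8 cells Klrd1 and the granule gene Ctsw were both higher. Klrd1 had 334, 519 and 750 CPM in Ccl5-expressing cells, against 35.2, 36.3 and 48.6 CPM in Ccl5-zero cells (log2 3.75, SE 0.16, adjusted p = 9.8e-22). Ctsw had 394, 500 and 528 CPM in Ccl5-expressing cells, against 43, 49.5 and 52.3 CPM in Ccl5-zero cells (log2 3.30, SE 0.14). The groups did not overlap in either gene. Hopx (log2 2.30), Il18r1 (log2 1.60), Lef1 (log2 −1.34) and Bach2 (log2 −1.10) passed in the same direction as in CD8 cells. Trdc, the constant region of the gamma delta T cell receptor's delta chain, was higher (log2 2.63, SE 0.16), and Trac, that of the alpha chain, was lower (log2 −1.05, SE 0.14).

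**Figure D2:**
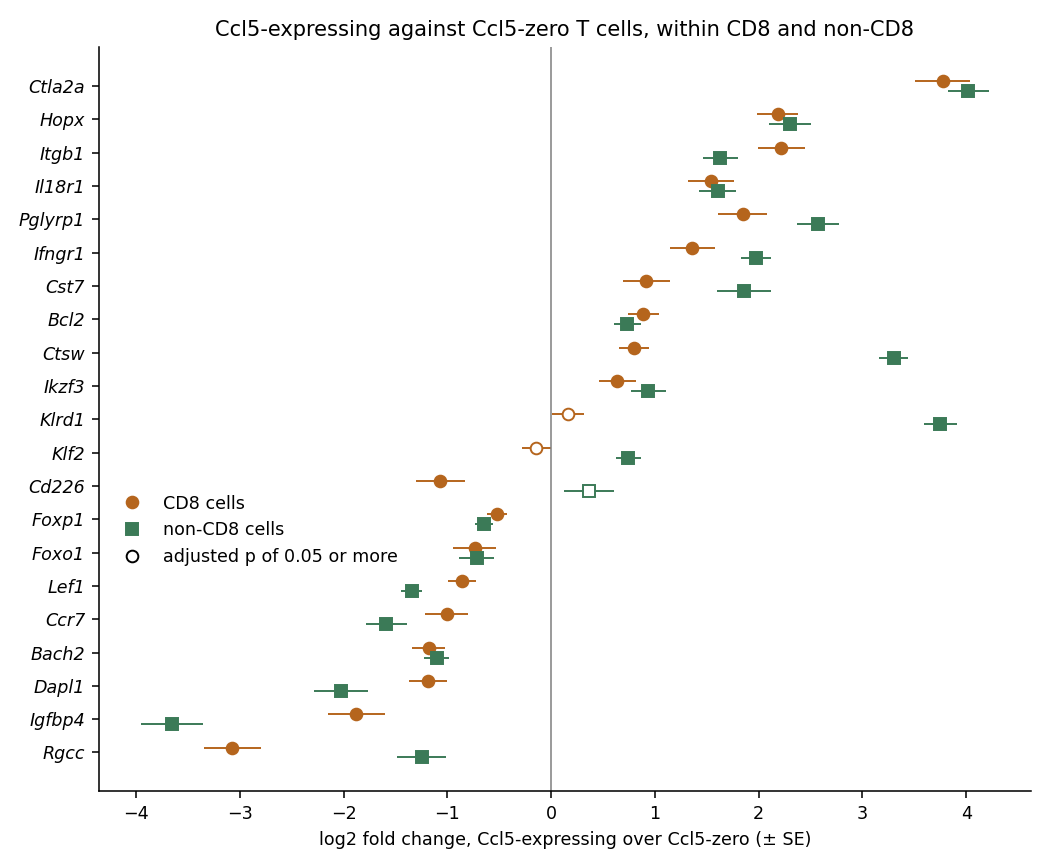
Log2 fold change of Ccl5-expressing over Ccl5-zero T cells with its standard error for 21 genes, within CD8 and within non-CD8 cells, where open symbols mark genes with an adjusted p of 0.05 or more. Hopx, Il18r1 and Ctla2a lie to the higher side and Lef1 and Bach2 to the lower side in both, while Klrd1 is near 0 in CD8 cells and at 3.75 in non-CD8 cells.

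The receptor constant genes divided the non-CD8 Ccl5-expressing cells further. Trdc was detected in 3.79% of CD8 and 44.6% of non-CD8 Ccl5-expressing cells, and in 1.52% and 28.2% after thinning to 1000 UMIs. Fcer1g was detected in 9.85% of CD8 and 43.0% of non-CD8 Ccl5-expressing cells, and in 6.82% and 30.6% after thinning. Trac was detected in 68.9% of CD8 and 33.5% of non-CD8 Ccl5-expressing cells, and in 26.5% and 13.1% after thinning. Among B cells Trac was detected in 0.396%, Trdc in 0.044% and Fcer1g in 0.726%. NK-marked cells, chosen by Ncr1 without CD3, had Fcer1g in 97.9%, Tyrobp in 96.8%, Trdc in 18.9% and Trac in 1.05%. Trac, Trbc1 or Trbc2 was detected in 54.7% of these NK-marked cells.

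Among the 251 non-CD8 Ccl5-expressing cells, 112 held Trdc, 80 held Fcer1g without Trdc and 59 held neither, and each of these was found in all 6 mice. Trac was detected in 9.82% of the Trdc cells, 52.5% of the Fcer1g cells and 52.5% of the others. Klra7 was detected in 5.36% of the Trdc cells, 48.8% of the Fcer1g cells and 20.3% of the others. Xcl1 was detected in 15.2% of the Trdc cells, 42.5% of the Fcer1g cells and 10.2% of the others. Ncr1, an activating NK receptor, was detected in 1.79% of the Trdc cells and 16.2% of the Fcer1g cells. The Trdc cells thus carried few Ly49 and Ncr1 transcripts, and the Fcer1g cells more of both. A single CD3 UMI carried the gate in 12.5% of the Fcer1g cells, and whether NK cells with stray CD3 UMIs are among them was not tested. Segment Trgv2 was found in 37 non-CD8 Ccl5-expressing cells, 23 of them with Trdc, and Tcrg-V1 in 31, 24 of them with Trdc. These divisions were made after the values were seen and carry no test.

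**Figure D3:**
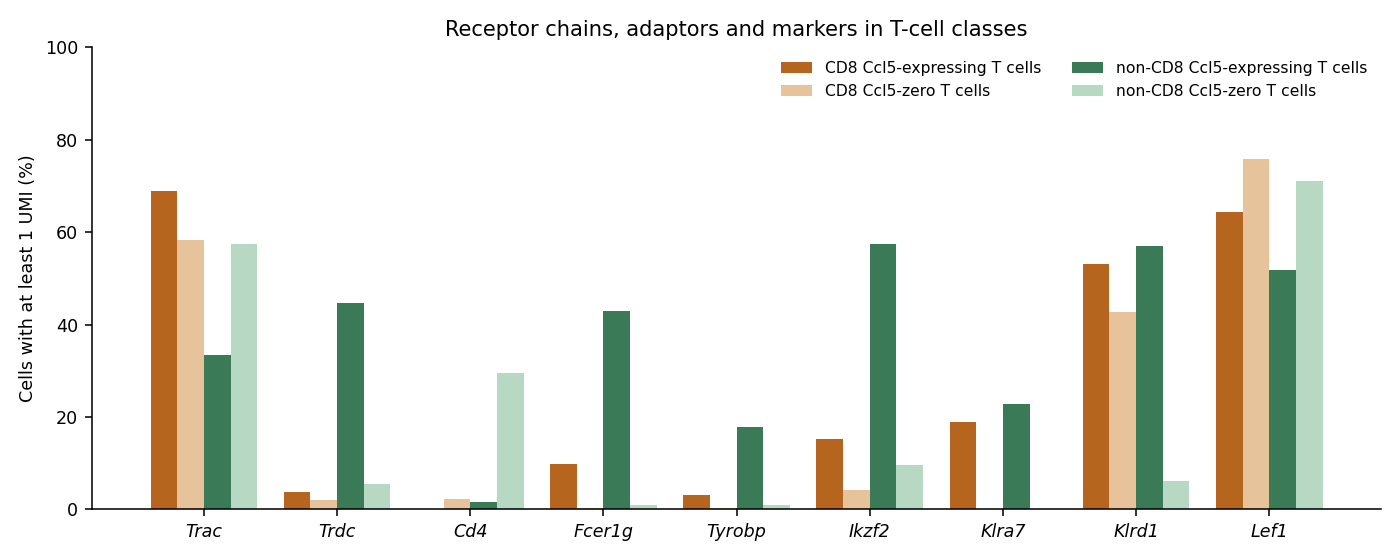
Percent of cells with at least 1 UMI of Trac, Trdc, Cd4, Fcer1g, Tyrobp, Ikzf2, Klra7, Klrd1 and Lef1 in CD8 and non-CD8 cells, Ccl5-expressing and Ccl5-zero. Trdc and Fcer1g are frequent only in the non-CD8 Ccl5-expressing class, at 44.6% and 43.0%, and Cd4 only in the non-CD8 Ccl5-zero class, at 29.5%.

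CD8 and non-CD8 Ccl5-expressing cells of the same mice differed in 214 of 1144 tested genes, or 18.7%, with 127 higher and 87 lower in CD8 cells. The split needs a captured Cd8a or Cd8b1 UMI, and median UMIs per cell were 4039 in CD8 and 2412 in non-CD8 cells. CD8 T cells without such a UMI count as non-CD8 here, and their number was not tested. Trdc had 0, 6.46 and 72.4 CPM in CD8 cells, against 248, 531 and 568 CPM in non-CD8 cells (log2 −4.22, SE 0.39, adjusted p = 7.9e-07). Tyrobp, an adaptor of NK receptors, had 0, 0 and 103 CPM in CD8 cells, against 144, 396 and 677 CPM in non-CD8 cells. Ikzf2 had 18.7, 128 and 326 CPM in CD8 cells, against 491, 638 and 1092 CPM in non-CD8 cells (log2 −2.30, SE 0.22). None of these overlapped. Of the rule's markers, Il2rb was lower in CD8 cells, with 151, 284 and 427 CPM in CD8 cells against 395, 612 and 694 CPM in non-CD8 cells, which overlapped (log2 −1.08, adjusted p = 7.0e-04). Ly6c2 was higher in CD8 cells, with 1759, 2358 and 2913 CPM in CD8 cells against 1186, 1824 and 2656 CPM in non-CD8 cells, which also overlapped (log2 0.40, adjusted p = 0.00314). Nkg7 and Xcl1 did not pass (log2 −0.29, adjusted p = 0.102, and log2 −0.64, adjusted p = 0.0924).

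CD8 cells had higher levels of 76 of 79 tested ribosomal protein genes and 0 lower, a list added after the data were seen, with a median log2 difference of 0.464 against −0.0454 over all tested genes. Rps19, a small-subunit ribosomal protein, had 8635, 9056 and 10130 CPM in CD8 cells, against 4701, 5350 and 5763 CPM in non-CD8 cells (log2 0.78, SE 0.06, adjusted p = 1.3e-07). Ribosomal genes took 39.2 to 42.4% of UMIs in CD8 and 31.2 to 34.4% in non-CD8 Ccl5-expressing cells, with no overlap between mice. The corresponding ranges in Ccl5-zero cells were 39.9 to 41.7% in CD8 and 35.5 to 37.5% in non-CD8 cells. CD8 cells also had lower Anxa2, Itga4, Cd7 and Jun. Jun, an immediate-early factor that also rises during tissue dissociation, had 43.4, 78.6 and 181 CPM in CD8 cells, against 196, 370 and 468 CPM in non-CD8 cells (log2 −1.79, SE 0.25). Of 10 stress genes 2 were higher and 5 were lower in CD8 cells, and their part in the other differences was not tested.

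The study compared KO with WT mice, and the shares of Ccl5-expressing cells were compared over mice by exact two-sided permutation of the genotype labels, with p adjusted over 8 shares. With 3 mice against 3 the smallest p is 0.1, so no share could pass 0.05. Ccl5-expressing cells were 17.4, 15.4 and 12.7% of T cells in KO mice, against 7.35, 6.65 and 8.38% in WT mice (15.16 ± 2.341% against 7.459 ± 0.874%, SD, n = 3 each; exact p = 0.1, adjusted 0.133). The genotypes did not overlap, and each KO share was higher. Among all kept cells the shares were 2.37, 2.17 and 1.89% in KO mice, against 1.43, 2.14 and 1.95% in WT mice, which overlapped (exact p = 0.4). Ccl5-zero T cells made up 10.7, 11.5 and 12.6% of all cells in KO mice, against 17.5, 29.2 and 20.8% in WT mice. The larger share among T cells in KO mice therefore went with a smaller share of Ccl5-zero T cells in the same mixture, and the enrichment for B cells before capture cannot be told apart from a difference in the node.

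Both compartments were compared in the same way. For the thinned shares here, the CD3, Cd79a, Foxp3, Ccl5, CD8 and Trdc limits were applied anew to the thinned counts. Cells that lost their Cd8a and Cd8b1 UMIs then counted as non-CD8, so the thinned classes hold other cells than the unthinned ones. The mean CD8 share of Ccl5-expressing cells over the 6 mice was 35.07% before and 14.64% after thinning. Ccl5-expressing cells were 14.9, 12.8 and 13.1% of CD8 T cells in KO mice, against 6.58, 5.66 and 8.87% in WT mice (exact p = 0.1), but overlapped after thinning to 1000 UMIs, at 6.29 ± 2.789% in KO and 3.08 ± 1.547% in WT mice (SD, n = 3 each; exact p = 0.2). They were 18.7, 16.6 and 12.5% of non-CD8 T cells in KO mice, against 7.83, 7.42 and 8.07% in WT mice (exact p = 0.1), and after thinning they did not overlap, at 12.33 ± 2.328% in KO and 6.866 ± 0.2756% in WT mice. CD8 cells were 29.9, 27.3 and 39.6% of Ccl5-expressing cells in KO mice, against 34.8, 37.5 and 41.4% in WT mice, which overlapped (exact p = 0.3). That share did not overlap with at least 3 Ccl5 UMIs, at a mean of 30.04% in KO and 37.63% in WT mice, nor without cells holding markers of other cell types, at 39.8% in KO and 52.95% in WT mice (exact p = 0.1 each). Among Ccl5-zero T cells CD8 cells were 35.27 ± 1.972% in KO and 40.42 ± 3.049% in WT mice, without overlap (SD, n = 3 each; exact p = 0.1). Trdc cells were 55.3, 54.7 and 48.3% of non-CD8 Ccl5-expressing cells in KO mice, against 46.7, 27.5 and 29.3% in WT mice, without overlap (exact p = 0.1), but overlapped after thinning to 1000 UMIs, with means of 27.39% in KO and 22.4% in WT mice.

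**Figure D4:**
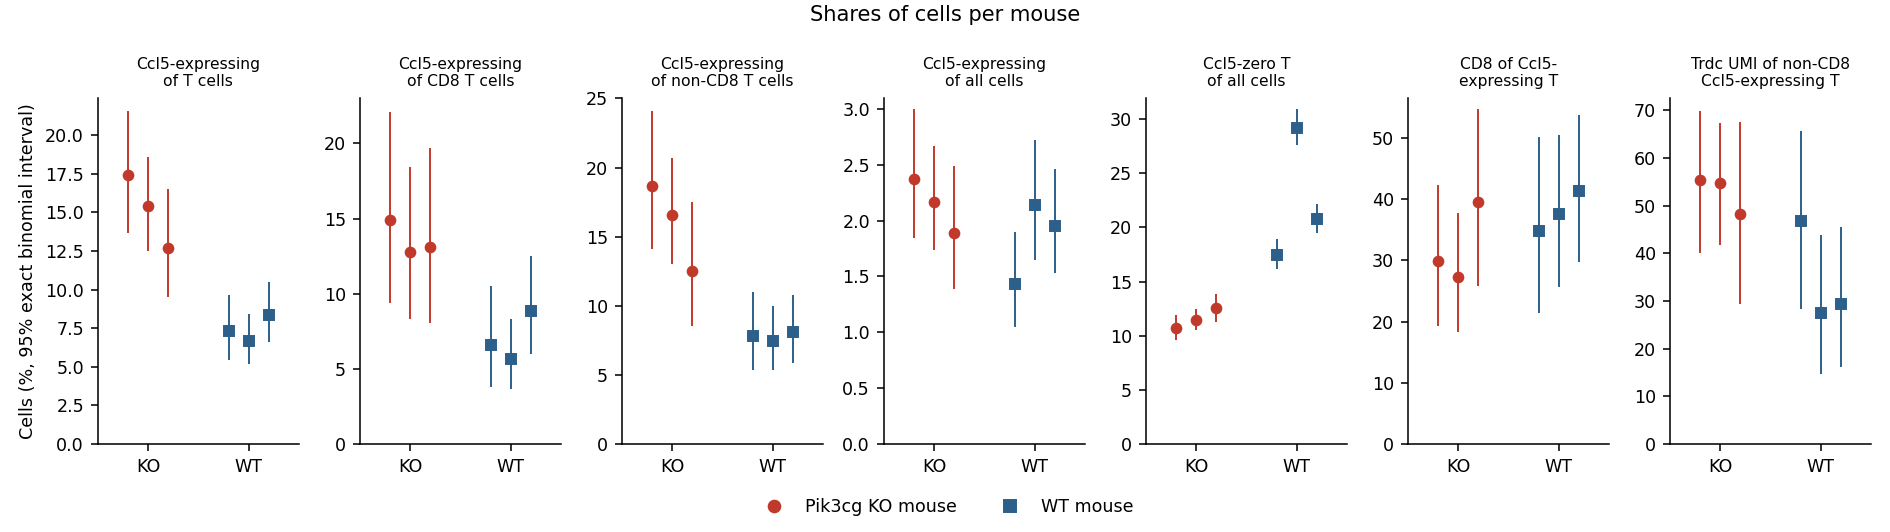
Percent of cells in 7 shares per mouse, with KO and WT mice marked and bars giving 95% exact binomial intervals that cover counting error only. KO mice lie above WT mice in the share of Ccl5-expressing cells among T cells, 12.7 to 17.4% against 6.65 to 8.38%, and overlap them in the share among all cells.

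Gene levels were compared between genotypes in the summed Ccl5-expressing cells (edgeR, n = 3 mice each). Of 2703 genes 4 passed, or 0.148%, with 1 higher and 3 lower in KO cells, and 164 genes had an unadjusted p under 0.05. Hspa1b, an inducible chaperone of the heat shock response, had 45.2, 42.9 and 39.4 CPM in KO cells, against 94.7, 206 and 252 CPM in WT cells (log2 −2.16, SE 0.34, adjusted p = 0.00535). The Hspa1b counts were low, at 1, 2 and 2 UMIs in CD8 cells of KO mice, against 3, 11 and 29 in WT mice. In non-CD8 cells they were 7, 7 and 3 UMIs in KO mice, with 5 of the 7 in 1 cell of KO mouse 1, against 9, 27 and 26 in WT mice. Lgals1, which encodes galectin 1, had 231, 253 and 363 CPM in KO cells, against 695, 514 and 490 CPM in WT cells (log2 −1.01, SE 0.18, adjusted p = 0.0155). S100a6, a calcium-binding protein of memory and effector cells, had 56.5, 76.2 and 323 CPM in KO cells, against 624, 574 and 298 CPM in WT cells (log2 −1.84, SE 0.37, adjusted p = 0.0374). Dpp4, the surface peptidase CD26, had 141, 172 and 150 CPM in KO cells, against 55.3, 43.3 and 73.3 CPM in WT cells (log2 1.40, SE 0.28, adjusted p = 0.0374). The WT values of Dpp4 rest on 3, 3 and 11 UMIs in CD8 and 4, 5 and 5 UMIs in non-CD8 cells. Only S100a6 overlapped, where KO mouse 3 exceeded WT mouse 3. For Lgals1, 1 cell held 31 of 47 UMIs in CD8 cells of WT mouse 1. Among non-CD8 cells 1 cell held 44 of 69 Lgals1 UMIs in WT mouse 2 and 17 of 34 in KO mouse 1. For S100a6, 1 cell held 20 of 39 UMIs in CD8 cells of WT mouse 1. Among non-CD8 cells 1 cell held 47 of 90 S100a6 UMIs in WT mouse 2 and 16 of 37 in KO mouse 3. The fold without these cells was not tested. Over the alternatives the log2 value of S100a6 ran from −2.87 to −0.93, with −2.83 without KO mouse 3 and −0.93 in lane 2 alone, where it did not pass. That of Lgals1 ran from −1.93 in lane 1 alone to −0.38 in lane 2 alone, where it did not pass. Each call was lost without KO mouse 2, when 0 genes passed and 182 had an unadjusted p under 0.05 (edgeR), and DESeq2 called 2 genes.

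In Ccl5-zero T cells of the same mice 29 of 8170 genes passed, or 0.355%. Hspa1b was lower there too, with 47.2, 98.8 and 72.1 CPM in KO cells, against 190, 182 and 218 CPM in WT cells (log2 −1.38, SE 0.14, adjusted p = 7.2e-06), and 6 of 17 stress genes were lower in KO cells. Lgals1 (log2 0.02, adjusted p = 0.989), S100a6 (log2 −0.04, adjusted p = 0.984) and Dpp4 (log2 0.39, adjusted p = 0.345) did not pass in Ccl5-zero cells. The test of the difference in KO effect between Ccl5-expressing and Ccl5-zero cells called 14 of 6405 genes, or 0.219%, among them S100a6 and Lgals1. A higher Lgals1 and S100a6 in WT Ccl5-expressing cells went with a higher summed level of 13 NK marker genes, which was 1450 to 1770 CPM in KO and 1780 to 2890 CPM in WT non-CD8 cells, and 68.1 to 301 CPM in KO and 307 to 861 CPM without TMM factors in WT CD8 cells. That sum includes Gzma, whose counts sat in few cells. For Gzma, 1 cell held 30 of 35 UMIs in CD8 cells of WT mouse 3. Among non-CD8 cells 1 cell held 45 of 78 Gzma UMIs in WT mouse 3 and 50 of 55 in KO mouse 1. The part of the 13 NK marker genes in the result was not tested.

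Of the rule's markers, none differed between genotypes by the test. Xcl1 had the widest gap, at 108.3, 106.2 and 114.4 CPM in KO cells, against 183.4, 198.6 and 164 CPM without TMM factors in WT cells, without overlap (log2 −0.70, SE 0.23, adjusted p = 0.432). Nkg7 (log2 0.04), Il2rb (log2 −0.12) and Ly6c2 (log2 −0.21) had smaller differences. Ccl5 in CD8 Ccl5-expressing cells was at 2019, 2708 and 2232 CPM in KO mice, against 3726, 3629 and 2746 CPM without TMM factors in WT mice, given without a test because Ccl5 chose the cells. The 2 lists with a called gene were the S100, annexin and galectin genes, with 2 of 11 lower, and the stress genes, with 1 of 16 lower, while 18 lists had no gene called in either direction.

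Within CD8 Ccl5-expressing cells 8 of 994 genes passed between genotypes, or 0.805%, with 7 higher and 1 lower in KO cells. Dapl1, a gene of naive-like T cells, had 349, 258 and 228 CPM in KO cells, against 51.3, 85.2 and 107 CPM in WT cells (log2 1.68, SE 0.36, adjusted p = 0.0189). Peli1, a ubiquitin ligase that restrains T cell activation, had 380, 353 and 404 CPM in KO cells, against 154, 219 and 116 CPM in WT cells (log2 1.22, adjusted p = 0.0426). S100a6 was lower in KO cells, at 95.1, 13.6 and 70.2 CPM against 667, 195 and 155 CPM in WT cells (log2 −2.39, adjusted p = 0.0414). It was detected in 2, 1 and 3 CD8 cells of KO mice, against 8, 6 and 8 of WT mice. These 3 genes separated the genotypes, over 16 to 29 cells per mouse. Dapl1 passed in 5 of 14 alternative settings, Peli1 in 3 of 15 and S100a6 in 6 of 14.

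The other genes higher in KO CD8 cells included Il31ra, at 2868, 3289 and 3811 CPM in KO cells against 1368, 2009 and 2222 CPM in WT cells (log2 0.80, SE 0.14, adjusted p = 0.00249), and Cmss1, Lars2, Gphn and Gm42418. Gm42418 overlaps ribosomal RNA sequence, and its count took 62570 to 99950 CPM in KO and 37410 to 72830 CPM in WT CD8 cells, so the values of genes that move with it are uncertain. In non-CD8 Ccl5-expressing cells 2 of 1567 genes passed, or 0.128%, with 0 higher and 2 lower in KO cells. Il31ra was lower, at 1822, 1709 and 1394 CPM in KO cells against 3046, 2266 and 2877 CPM in WT cells (log2 −0.71, adjusted p = 0.0489). Hspa1b was lower, at 74.6, 60.7 and 52.3 CPM in KO cells against 159, 312 and 278 CPM in WT cells (log2 −2.00, adjusted p = 0.0463). The KO effect on Il31ra differed between CD8 and non-CD8 cells, a test that called 10 of 1582 genes, or 0.632% (log2 1.54, SE 0.22, adjusted p = 3.2e-04).

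**Figure D5:**
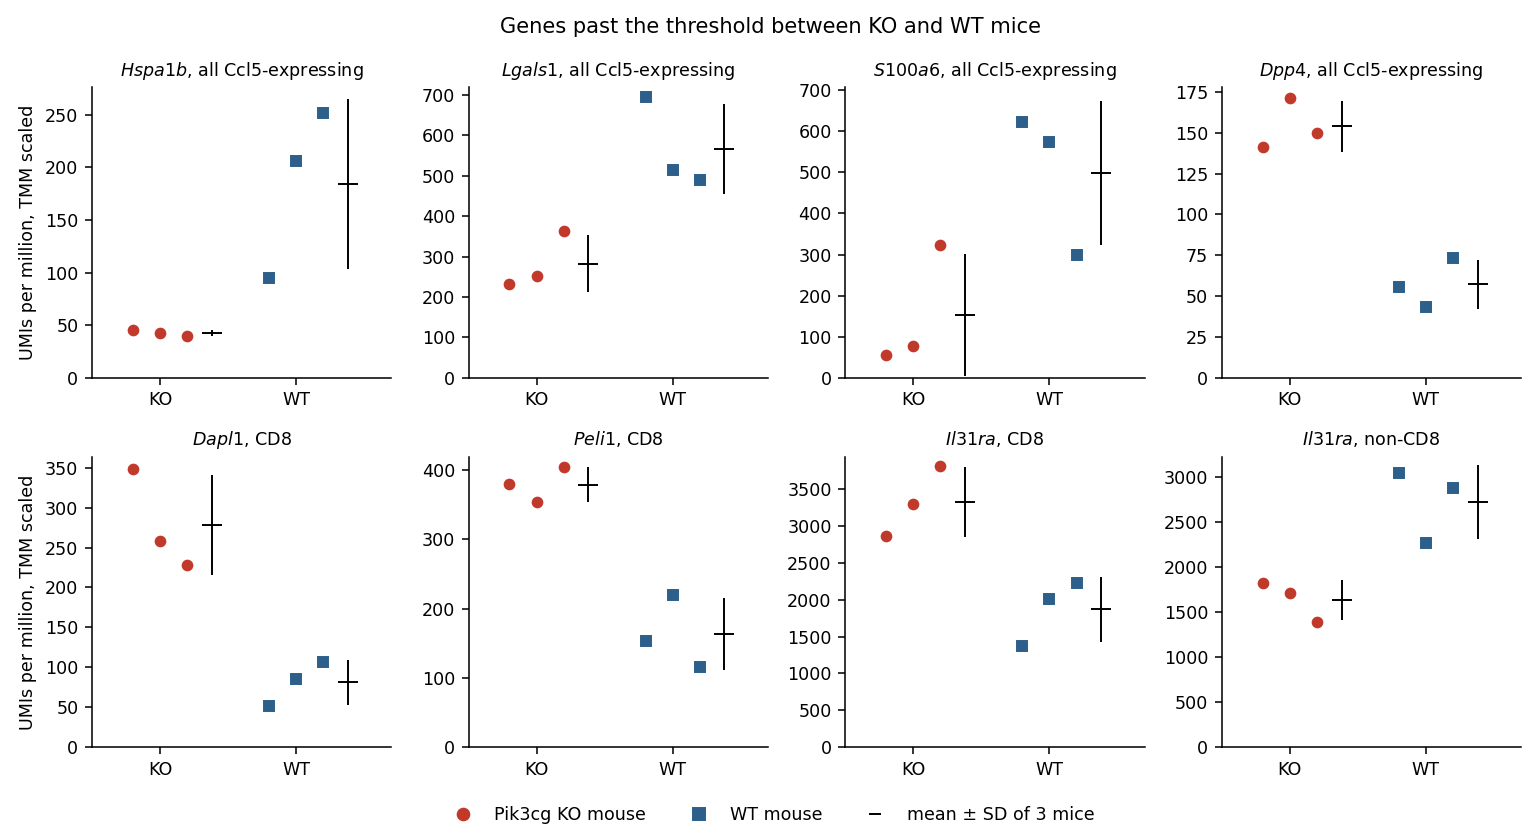
CPM per mouse of Hspa1b, Lgals1, S100a6 and Dpp4 in all Ccl5-expressing T cells, of Dapl1, Peli1 and Il31ra in CD8 cells, and of Il31ra in non-CD8 cells, with KO and WT mice marked and bars giving the mean ± SD of 3 mice. Il31ra is higher in KO than in WT mice among CD8 cells and lower among non-CD8 cells, and S100a6 in all Ccl5-expressing cells is the panel in which the genotypes overlap.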

How the data were processed

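Gene expression values are raw UMI counts per gene and barcode as the authors deposited them, with Cell Ranger 7.0.1 named per the file headers and the build mm10 in the submitters' processing notes. Deposited B cell receptor contigs also carry raw UMI counts. The authors' hashtag calls assigned barcodes to mice; the sources used here do not give their rule. Of 23516 barcodes, 19270 carried 1 hashtag and 19230 passed the limits.

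UMIs were summed per mouse and class over both lanes, which are technical repeats of 1 pool, so the mouse was the replicate. Genes were filtered with filterByExpr, scaled by TMM and tested with edgeR 4.0.16 (quasi-likelihood, R 4.3.3), with Benjamini-Hochberg adjustment at 0.05 and a minimum of 10 cells per mouse and class. Comparisons within mice kept the mouse as a block. Genes of the selection were left out of the tests, and the other markers are described without one in the Ccl5 split. The same steps were tested on simulated counts, with 200 genes changed by a log2 of 2. The Ccl5 split recovered 98.5% of them with 7.94% false among called genes, and CD8 against non-CD8 recovered 98.5% with 4.37% false. KO against WT recovered 100% in Ccl5-expressing cells with 2.44% false and 100% in Ccl5-zero cells with 5.66% false. The difference of the KO effect between these classes recovered 63.5% with 0% false. DESeq2 1.42.0, other normalization and filters, each mouse or lane left out, other Ccl5 and CD3 limits and removal of cells holding markers of other cell types were tried. Cells were thinned to 1000 UMIs to compare detection within fixed classes. For thinned shares the class limits were applied anew to the thinned counts. Doublets were marked by Scrublet in scanpy 1.11.5.

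Positions came from GENCODE vM21, matched to 32158 of 32285 gene IDs. Named genes were the markers, the 12 largest rises and falls of at least 50 CPM with the same direction in every mouse or no overlap between genotypes, and up to 4 called members of each list; Cd44, Tcf7, Cd160, Slamf7, Crtam, Klrd1 in CD8 cells and other uncalled genes given beside them were added after their values were seen. The cells, lists and rule were chosen with earlier results of these data known. Some genes counted in totals are not reported by name here. Nothing says that age or sex was balanced between genotypes.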

Additional observations from a re-analysis of the deposited data

Results flagged for a closer look

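The effect of the knockout differed between Ccl5-expressing and Ccl5-zero T cells, by an edgeR test of the difference itself, in 14 genes. Each value is the log2 KO over WT change in Ccl5-expressing cells minus that in Ccl5-zero cells. The values were −1.80 for S100a6, −1.01 for Lgals1, −0.45 for Npm1, −0.57 for Ly6c2, −1.30 for Cst3, −4.01 for Pclaf, 1.73 for Fcer1g, 0.54 for Cmss1, 0.33 for Gm42418, 0.52 for Cdk8 and 0.45 for Lars2. Cd40lg, at −7.12, had 0 UMIs in all KO Ccl5-expressing cells, so its value is no bound. The receptor segments Trbv29 and Trbv16 had values of 4.23 and −2.52, which rest on few cells. Among Ccl5-expressing cells Trbv29 was found in 4, 2 and 2 cells of KO mice and in 1, 0 and 2 cells of WT mice. Trbv16 was found in 2, 4 and 0 cells of KO mice and in 2, 4 and 6 cells of WT mice. Among Ccl5-zero cells Fcer1g was found in only 2, 4 and 1 cells of KO mice and in 3, 6 and 7 cells of WT mice. The Cst3 value also rests on few cells. Among non-CD8 Ccl5-expressing cells 1 cell held 74 of 88 Cst3 UMIs in WT mouse 2, 107 of 116 in WT mouse 3 and 12 of 24 in KO mouse 3.

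The effect also differed between CD8 and non-CD8 Ccl5-expressing cells in 10 genes, by the same kind of test, and here each value is the change in CD8 cells minus that in non-CD8 cells. The values reported here were 5.29 for Cd74, 1.50 for Cmss1, 1.54 for Il31ra, 1.63 for Gm19951, 2.73 for Cst3, 1.00 for Camk1d, 1.21 for Lars2, 0.73 for Gm42418 and 1.18 for Gphn. The Cd74 and Cst3 values rest on single cells in both genotypes. For Cd74, 1 cell held 15 of 22 UMIs in CD8 cells of KO mouse 2, 27 of 29 in CD8 cells of KO mouse 3, and 104 of 109 in non-CD8 cells of WT mouse 3. For Cst3, 1 cell held 12 of 18 UMIs in CD8 cells of KO mouse 3, 74 of 88 in non-CD8 cells of WT mouse 2 and 107 of 116 in non-CD8 cells of WT mouse 3. Cmss1 and Il31ra passed in 9 of 9 alternatives, which were RLE factors, DESeq2, no filter and leaving out each mouse. All of these use the same counts, and none addresses Gm42418, which overlaps ribosomal RNA sequence and was called in this test too. Whether Cmss1 and Il31ra move with Gm42418 was not tested. Other Ccl5 and CD3 limits and removal of other-marker cells were not run for this test. The KO call within CD8 cells passed in 12 of 15 settings for each gene. Both CD8 calls were lost without other-marker cells and with at least 3 Ccl5 UMIs. Within non-CD8 cells the Il31ra call passed in 12 of 17.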

How the results depend on the processing

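Of the 78 named genes called in the Ccl5 split, 49 passed in each alternative in which that gene was tested (15 to 20 a gene), and 0 of the 4 genotype calls did so. Counts of genes called between Ccl5-expressing and Ccl5-zero cells were 845 without the filter on low counts, 326 with DESeq2, 215 and 265 with lane 1 or lane 2 alone, 255 without cells holding markers of other cell types and 122 in CD8 cells alone; without the mouse as a replicate block the count was 545. In CD8 cells alone the log2 values of H2-D1 (−0.069), H2-Q7 (−0.23), Klf2 (−0.14) and Rgs10 (0.085) turned their direction. Between CD8 and non-CD8 cells the counts were 108 with DESeq2, 111 without cells holding other markers and 202 without the replicate block.

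Counts between genotypes were 26 without the filter, 2 with DESeq2, 0 to 11 when leaving out 1 mouse, 2 in lane 1 alone, 8 with at least 1 Ccl5 UMI and 1 with at least 2 CD3 UMIs. In CD8 cells they were 5 with RLE factors, 23 without the filter, 2 with DESeq2, 3 to 11 when leaving out 1 mouse, 1 without other-marker cells, 4 with at least 1 Ccl5 UMI, 0 with at least 3 (edgeR, 58 at an unadjusted p under 0.05) and 3 with at least 2 CD3 UMIs. In non-CD8 cells they were 12 without the filter, 1 with DESeq2, 0 to 8 when leaving out 1 mouse, 0 in lane 1 alone (edgeR, 29 at an unadjusted p under 0.05), 0 without other-marker cells (21), 5 with at least 1 Ccl5 UMI and 0 with at least 3 (70). In Ccl5-zero cells they were 75 without the filter, 18 with DESeq2, 12 to 48 when leaving out 1 mouse and 11 in lane 2 alone.

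The difference of the genotype effect between Ccl5-expressing and Ccl5-zero cells called 0 genes with DESeq2 (74 at an unadjusted p under 0.05), 1 to 16 when leaving out 1 mouse, 9 and 7 in lane 1 or 2 alone, and 9 each without other-marker cells, with at least 3 Ccl5 UMIs and with at least 2 CD3 UMIs; Fcer1g turned to −0.84 in lane 2 alone. Between CD8 and non-CD8 cells it called 4 with DESeq2 and 4 to 10 when leaving out 1 mouse. The CD8 share of Ccl5-expressing minus that of Ccl5-zero cells was −2.773 points (exact sign-flip p = 0.188). In lane 1 alone it was −2.723 points (exact sign-flip p = 0.375, lower in 4 of 6 mice). In lane 2 alone it was −3.221 points (exact sign-flip p = 0.031, lower in 6 of 6 mice, the smallest p 6 mice allow). It was −11.98 points after thinning to 1000 UMIs (exact sign-flip p = 0.0625, lower in 5 of 6). With at least 3 Ccl5 UMIs it was −4.007 points (exact sign-flip p = 0.0625, lower in 5 of 6). It was 8.093 points without other-marker cells (exact sign-flip p = 0.0938) and 1.653 points with at least 1 Ccl5 UMI (exact sign-flip p = 0.281). The −11.98 points use classes called anew on thinned counts, where cells that lost their Cd8a and Cd8b1 UMIs counted as non-CD8. No paired analysis was possible between genotypes because the labels link no KO mouse to a WT mouse and the numbers 1 to 3 are only names. Gene tests that use CD8 Ccl5-expressing cells were not run in 1 lane alone, where a mouse held under 10 cells. The causes were not tested, and 16 to 64 cells per mouse and compartment limit precision.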
